A study of Homo sapiens with 45 samples.

Results

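The genes described here lie in the first 10 Mb of the short arm of chromosome 4, in band 4p16, and were measured in 45 polyA RNA sequencing libraries of HAP1, a near-haploid human cell line derived from the leukaemia line KBM-7. Of 53 listed gene names, 52 were found in the count table of 60676 genes, and the 43 with a mean raw count of at least 10 over the 45 libraries are the genes meant in what follows. All 43 passed the filter on low counts and were tested. They were chosen by these same RNA counts, because their levels were lower together in the RNF25 knockout (KO) and in the RNF25 GCN2 double knockout (DKO), so their differences from AAVS1 in those lines are given as a description, with no p-value. The 9 names found under the limit were TMEM175, FAM53A, SH3BP2, TMEM128, EVC2, EVC, MAN2B2, SH3TC1 and HMX1. Just outside the limit TMEM175 had a mean of 8.11 counts, and just inside it UVSSA, ZBTB49 and ACOX3 had means of 10.2, 11.2 and 11.4 counts. NSG1 was not found by name, because its entry carries the label HGNC:18790. WDR1 starts at 10074339 (GRCh38), just past 10 Mb, and is kept as listed.

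The 6 HAP1 lines were RNF25 KO, RNF25 GCN2 DKO, GCN2 KO, ZNF598 KO, eS31 K113R and AAVS1, the last named for a genomic site often edited as a neutral control. The ubiquitin ligases RNF25 and ZNF598 mark proteins at ribosomes that have stalled, the kinase GCN2, encoded by EIF2AK4, starts the integrated stress response, and K113R replaces a lysine of eS31, a ribosomal protein encoded by RPS27A. All 6 lines were sampled after 4 h in 5 uM azacytidine (azaC, a cytidine analogue) and untreated, and RNF25 KO, GCN2 KO and AAVS1 also after 4 h in 25 nM halofuginone (HF, which blocks prolyl-tRNA synthetase). The 15 groups of 3 libraries bear no label beyond biological replicate, so p-values measure the spread between these libraries. How many clones each line stands for, and whether the DKO line was made from the RNF25 KO line, is not given in the sources used here. By its title the study asked how RNF25 gives tolerance to azaC, and none of its labels mentions chromosome 4.

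The tip of chromosome 4p is gene dense and well known in human genetics. Loss of it in the germ line causes Wolf-Hirschhorn syndrome, expansion of a repeat in HTT causes Huntington disease, activating changes in FGFR3 cause skeletal dysplasias, and translocations that raise NSD2 and FGFR3 occur in multiple myeloma. The genes there have varied functions. Among them are chromatin regulators (NSD2, NELFA, CTBP1, PCGF3), ubiquitin ligases (RNF4, MAEA), spindle and histone mRNA factors (TACC3, SLBP), trafficking proteins and mitochondrial proteins (LETM1, GRPEL1). The listed genes share their place on the chromosome by choice, and whether they share functions was not tested.

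Levels are CPM, counts relative to the library total on TMM-scaled library sizes, and are compared within a gene, since CPM is not corrected for gene length. Libraries held 1135498 to 2478875 counts, and the summed counts of the 43 genes ran from 2271 in 1 RNF25 KO library to 7210 in 1 AAVS1 library. RNF25 KO azaC replicate 2 stood apart with the highest total, the lowest mitochondrial share (3.14%, against up to 8.73% elsewhere) and the highest slope of its levels on transcript GC content (0.35). AAVS1 untreated replicate 2 had the lowest slope (-0.46). Without AAVS1 untreated replicate 2, the averaged fold change against AAVS1 moved by more than 1 SE for 0 of the 43 genes in RNF25 KO and 1 in DKO, and without RNF25 KO azaC replicate 2 for 3 genes in RNF25 KO. Values without these libraries are given with those genes. RNF25 itself had 0 to 7 counts in every library, which checks no label. EIF2AK4 averaged 21.9 CPM in untreated GCN2 KO, 39.6 CPM in untreated DKO and 43.96 CPM in untreated AAVS1, and ZNF598 averaged 37.2 CPM in untreated ZNF598 KO against 62.6 CPM in untreated AAVS1. The mRNA level therefore does not check the GCN2 part of the DKO label. Of 12 blood cell markers, 10 never exceeded 10 counts in any library. The others were KIT, with at most 13 counts, and GATA2, at 23.2 to 49.2 CPM over the groups. Summed levels over the groups were 27.8 to 51.8 CPM for these 12 and 29.4 to 64.8 CPM for 5 epithelial markers. They were 142 to 284 CPM for 4 neural and 375 to 797 CPM for 4 mesenchymal markers, with VIM alone at 289 to 570 CPM. No cell identity is read from these lists.

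Promoter windows were available for 35 of the 43 genes from RefSeq (GRCh38.p14), and 4 windows that overlap no annotated exon are shown as the 250 bases before the start: NSD2 and TACC3, neighbours that were both lower in RNF25 KO and DKO, FGFR3, which lies between them and differed in GCN2 KO, and HMX1, a listed gene under the count limit that ran the other way. Capitals mark the GC box (GGGCGG or CCGCCC, either strand) and the CCAAT box (CCAAT or ATTGG, either strand). NSD2 is at chr4:1871143-1871392 (+), TACC3 at chr4:1720381-1720630 (+), FGFR3 at chr4:1793043-1793292 (+) and HMX1 at chr4:8871840-8872089 (-), each printed 5' to 3' on its gene's strand.
NSD2: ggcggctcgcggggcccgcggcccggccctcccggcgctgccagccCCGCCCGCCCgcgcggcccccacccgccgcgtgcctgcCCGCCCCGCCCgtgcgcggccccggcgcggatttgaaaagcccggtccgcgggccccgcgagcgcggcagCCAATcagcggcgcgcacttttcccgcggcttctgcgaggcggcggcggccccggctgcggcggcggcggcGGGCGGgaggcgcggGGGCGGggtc
TACC3: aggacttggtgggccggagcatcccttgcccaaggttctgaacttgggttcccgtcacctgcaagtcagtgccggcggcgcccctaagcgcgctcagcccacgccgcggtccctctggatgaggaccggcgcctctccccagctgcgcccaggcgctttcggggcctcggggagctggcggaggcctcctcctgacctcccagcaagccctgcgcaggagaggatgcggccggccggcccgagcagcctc
FGFR3: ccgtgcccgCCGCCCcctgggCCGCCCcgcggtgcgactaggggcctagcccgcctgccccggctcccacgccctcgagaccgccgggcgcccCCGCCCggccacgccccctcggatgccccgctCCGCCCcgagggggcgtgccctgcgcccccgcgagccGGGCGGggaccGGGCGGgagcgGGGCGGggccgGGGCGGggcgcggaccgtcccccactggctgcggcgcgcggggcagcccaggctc
HMX1: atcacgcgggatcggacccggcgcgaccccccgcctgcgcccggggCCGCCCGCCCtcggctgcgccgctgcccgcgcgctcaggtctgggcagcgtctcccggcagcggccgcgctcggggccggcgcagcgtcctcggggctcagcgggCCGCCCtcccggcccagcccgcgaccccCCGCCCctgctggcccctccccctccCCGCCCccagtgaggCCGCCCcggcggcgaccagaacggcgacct
The NSD2, FGFR3 and HMX1 windows were 86.0%, 86.8% and 83.6% G+C and held 7, 8 and 6 matches, whereas the TACC3 window was 71.6% G+C and held 0. The TACC3 window ends at 1720630, ahead of the TACC3 start at 1721490 in the annotation used for gene positions. It lies within the span of TMEM129 (1715952 to 1721358). The TACC3 window therefore does not cover the bases just before that start, and nothing is read from its difference from the other windows. A GC box was found in 25 of the 35 windows (71.4%), against 44.6% of all 27303 RefSeq windows. A CCAAT box was found in 13 of the 35 windows (37.1%, against 35.7% of all windows), and TATAAA or TTTATA in 1 (2.86%, against 11.9%). The median G+C of the 35 windows was 72.3%, against 58.3% over all windows, and the median ratio of observed to expected CpG was 0.913 against 0.580. These are descriptions of letters in a window and were set against no test.

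In RNF25 KO cells the 43 genes summed to about the same fraction of their AAVS1 level, near 0.5, in all 3 treatments. Abundant genes such as MRFAP1 (mean 462 CPM) weigh most in the sum. Averaged over treatments, single genes stood at 0.33 (MXD4) to 0.90 (ACOX3) of AAVS1. The summed level was 1798 ± 49.0 CPM in untreated RNF25 KO and 3577 ± 255 CPM in untreated AAVS1 (SD, n = 3 each), a ratio of 0.503 ± 0.0222 (SE). With azaC it was 1803 ± 182 CPM in RNF25 KO and 3568 ± 61.9 CPM in AAVS1, a ratio of 0.505 ± 0.0298. With HF it was 1593 ± 26.1 CPM in RNF25 KO and 3187 ± 124 CPM in AAVS1, a ratio of 0.50 ± 0.0122. The 9 RNF25 KO libraries summed to between 1575 and 1969 CPM, all below the 9 AAVS1 libraries at 3060 to 3734 CPM. In these bulk libraries, fewer cells with the RNA and less RNA in each cell cannot be told apart, and no DNA measurement was used here.

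The double knockout stood at the same fraction. Its summed level was 1784 ± 101 CPM in untreated DKO against the untreated AAVS1 value above, a ratio of 0.499 ± 0.0262. With azaC it was 1778 ± 44.1 CPM in DKO, with a ratio to AAVS1 of 0.498 ± 0.0087. Its 6 libraries ran from 1714 to 1900 CPM, within the range of the RNF25 KO libraries and apart from AAVS1. The comparisons of the 2 lines share the AAVS1 libraries, so their likeness is given only as values side by side.

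**Figure D1:**
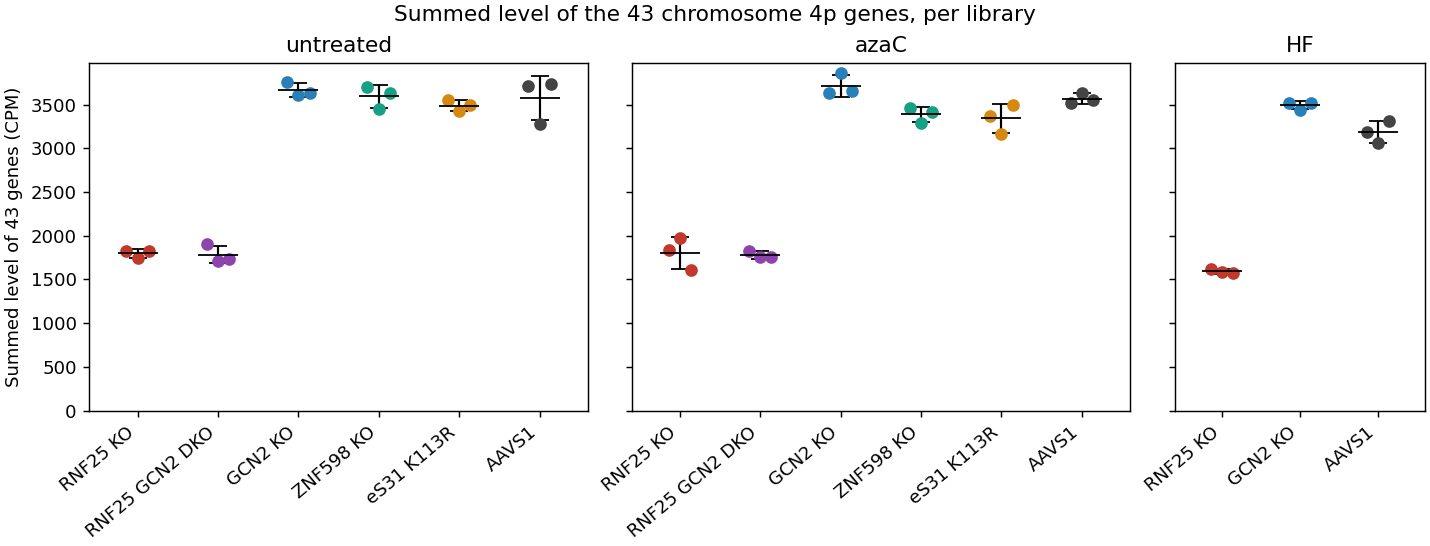
Summed level of the 43 genes in CPM (vertical axis) in each library, by line (horizontal axis), with 1 panel per treatment and each point 1 library. RNF25 KO libraries sit between 1575 and 1969 CPM and DKO libraries between 1714 and 1900 CPM, below every library of GCN2 KO, ZNF598 KO, eS31 K113R and AAVS1.

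Gene by gene, 42 of the 43 lay below AAVS1 in untreated RNF25 KO, 43 with azaC and 42 with HF, with median log2 fold changes of -0.93, -0.96 and -0.94. In DKO all 43 lay below AAVS1 both untreated and with azaC, with medians of -0.91 and -1.03. Averaged over treatments the median was -0.93 in RNF25 KO, with a range of -1.61 to -0.16, and -0.99 in DKO, with a range of -1.52 to -0.13. The RNF25 KO averages cover untreated, azaC and HF libraries, whereas the DKO averages cover untreated and azaC only. Gaps between the averages of the 2 lines, here and gene by gene below, can therefore include effects of HF. No gene of the 43 had a positive average in either line. Within single libraries, 39 to 42 of the 43 genes were below the AAVS1 mean of the same treatment in RNF25 KO, 40 to 42 in DKO, and 16 to 27 in AAVS1 itself.

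The counts past the threshold that the other comparisons use (edgeR quasi-likelihood test, adjusted p under 0.05 over 11078 genes) are listed beside their background, and nothing is read from them, because the choice of genes used these contrasts. In RNF25 KO, 18 of the 43 genes were past it on the lower side untreated (0.668% of all genes tested), 19 with azaC (0.785%), 18 with HF (0.632%) and 34 averaged over treatments (2.97%). In DKO the counts were 18 untreated (0.551%), 22 with azaC (0.659%) and 32 averaged (1.53%). With only the groups compared in the fit, the counts were 4 untreated and 12 with azaC in RNF25 KO and 5 in untreated DKO. Leaving out DKO untreated replicate 3 lowered the untreated DKO count to 11. All RNF25 KO libraries lay below all AAVS1 libraries for 9 of the 43 genes (0.469% of all genes), namely CTBP1, NSD2, ADD1, NOP14, LYAR, MRFAP1, KIAA0232, TBC1D14 and GRPEL1. In DKO, with 6 libraries on each side, this held for 25 of the 43 genes (1.14%).

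The spread among the genes narrowed with depth. The 13 genes with a mean of at least 100 counts lay between -1.12 and -0.76 in RNF25 KO (SD 0.113) and between -1.25 and -0.81 in DKO. The 17 genes with 30 to 100 counts spanned -1.61 to -0.66 in RNF25 KO and -1.52 to -0.13 in DKO, and the 13 genes with 10 to 30 counts spanned -1.37 to -0.16 and -1.52 to -0.53. A log2 fold change of -1 was within 2 SE for 40 of the 43 genes in RNF25 KO and 41 in DKO. A value of 0 was within 2 SE for 3 genes in RNF25 KO and 6 in DKO. Nothing is read from these counts either, because the choice of genes used these contrasts.

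Among the genes of chromatin and transcription, 12 were measured, with a median of -0.997 in RNF25 KO and -1.01 in DKO. NSD2, a histone methyltransferase, stood at 111, 101 and 87.9 CPM in the untreated RNF25 KO libraries, 90.2, 90.0 and 94.6 CPM in untreated DKO, and 199, 200.1 and 266 CPM in untreated AAVS1. The groups did not overlap. Over treatments NSD2 differed from AAVS1 by -1.12 ± 0.10 in RNF25 KO and by -1.14 ± 0.12 in DKO (log2 fold change ± SE). MRFAP1, which binds the MORF4 family of chromatin proteins, stood at 284, 249.9 and 305 CPM in untreated RNF25 KO, 331, 234 and 294 CPM in untreated DKO, and 602, 606 and 645 CPM in untreated AAVS1. All RNF25 KO and DKO libraries, treated ones included, were at or below 331 CPM and all AAVS1 libraries at or above 446 CPM. MRFAP1L1, its paralogue and near neighbour, stood at 126, 192 and 105 CPM in untreated RNF25 KO, 139, 134 and 103 CPM in untreated DKO, and 259.9, 241 and 213 CPM in untreated AAVS1. Reads of the 2 paralogues may be shared where their sequences are alike, which was not examined.

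LYAR, a nucleolar zinc-finger protein tied to cell growth, stood at 87.8, 107 and 87.2 CPM in untreated RNF25 KO, 88.8, 78.1 and 72.4 CPM in untreated DKO, and 208, 193 and 195 CPM in untreated AAVS1. Its difference was -1.01 ± 0.09 in RNF25 KO and -1.13 ± 0.11 in DKO. The averages were further apart for NELFA, a subunit of the complex that holds RNA polymerase II near its start. It was at -0.87 ± 0.16 in RNF25 KO and -1.52 ± 0.20 in DKO. Only the RNF25 KO average includes HF. The HF response of NELFA in RNF25 KO minus AAVS1 was 0.86 ± 0.39 (log2), not past the threshold (edgeR unadjusted p = 0.0326). Over untreated and azaC libraries, edgeR called 0 of the 43 genes between DKO and RNF25 KO. The source of the gap was not tested. MXD4, a MAX-binding repressor that opposes MYC, was the lowest of the 43 in RNF25 KO at -1.61 ± 0.32, and stood at -1.27 ± 0.38 in DKO. Its libraries were scattered, with 1.26, 8.83 and 24.1 CPM as lowest, median and highest in RNF25 KO, 7.62, 12.1 and 23.7 CPM in DKO, and 10.5, 26.2 and 64.6 CPM in AAVS1, so that the lines overlapped. CTBP1 (a corepressor; -0.91 ± 0.12 in RNF25 KO and -0.95 ± 0.15 in DKO) and the Polycomb subunit gene PCGF3 (-1.15 ± 0.18 and -1.04 ± 0.21) did not stand apart from the median by more than 2 SE. MSX1, a homeobox gene, was at -0.87 ± 0.25 in RNF25 KO and -0.57 ± 0.29 in DKO.

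Of the 4 genes of ubiquitin and DNA repair, the median was -0.96 in RNF25 KO and -1.11 in DKO. RNF4, a ligase that recognises SUMO chains, was at -0.66 ± 0.19 in RNF25 KO and -1.20 ± 0.23 in DKO. MAEA, a subunit of the CTLH ligase, was at -0.99 ± 0.16 and -1.01 ± 0.20, and at -1.16 in RNF25 KO without RNF25 KO azaC replicate 2. TMEM129, an ER ligase, was at -0.93 ± 0.16 and -0.86 ± 0.20, and UVSSA, a factor of transcription-coupled repair near the count limit, at -1.10 ± 0.40 and -1.45 ± 0.50.

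The genes of cell division and histone mRNA were SLBP, TACC3 and HAUS3. TACC3, a spindle protein whose gene neighbours FGFR3, stood at 248.8, 178 and 209 CPM in untreated RNF25 KO, 225, 174 and 148 CPM in untreated DKO, and 462, 301 and 337 CPM in untreated AAVS1. The untreated groups did not overlap, but with all treatments the highest RNF25 KO library (248.8 CPM) passed the lowest AAVS1 library (239.6 CPM, with HF). SLBP, which binds the stem-loop of histone mRNAs, stood at 53.1, 59.1 and 73.5 CPM in untreated RNF25 KO, 36.9, 50.2 and 67.3 CPM in untreated DKO, and 99.0, 154 and 114 CPM in untreated AAVS1. TACC3 differed from AAVS1 by -0.96 ± 0.10 in RNF25 KO and -0.91 ± 0.13 in DKO, and SLBP by -0.90 ± 0.12 and -1.25 ± 0.15. HAUS3, a subunit of the spindle complex augmin, was at -0.89 ± 0.32 and -1.18 ± 0.40, with 9.7% of its exon length shared with another gene on the same strand.

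Membrane trafficking was represented by 5 measured genes, with medians of -1.15 in RNF25 KO and -1.25 in DKO. BLOC1S4, a subunit of a complex in the biogenesis of lysosome-related organelles, was at -1.37 ± 0.22 in RNF25 KO and -1.30 ± 0.26 in DKO. TBC1D14, a regulator of endosomes and autophagy, was at -1.16 ± 0.13 and -1.25 ± 0.17, and STX18, a SNARE protein of the ER, at -1.15 ± 0.23 and -1.27 ± 0.29. LRPAP1, a chaperone of the LDL receptor family, was at -0.91 ± 0.14 and -0.84 ± 0.17. GAK, a kinase of clathrin uncoating, was at -0.73 ± 0.21 and -0.75 ± 0.26, with AAVS1 untreated replicate 2 at 10.5 CPM below every library of RNF25 KO and DKO, and the other 8 AAVS1 libraries at 36.8 to 70.6 CPM. Without that library GAK was at -0.90 in RNF25 KO and -1.002 in DKO.

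Of the 5 genes of mitochondria, ER and lipids, LETM1, an ion exchanger of the inner mitochondrial membrane, stood at 51.5, 57.2 and 64.2 CPM in untreated RNF25 KO, 36.2, 58.7 and 60.3 CPM in untreated DKO, and 108, 49.9 and 114 CPM in untreated AAVS1. The low AAVS1 value belongs to replicate 2, the library with the lowest GC slope, and it lay below the 3 untreated RNF25 KO libraries and within the range of untreated DKO. Without that library LETM1 differed by -0.90 in RNF25 KO and -1.13 in DKO, and with it by -0.80 ± 0.12 and -0.98 ± 0.15. GRPEL1, a co-chaperone of mitochondrial protein import, was at -1.01 ± 0.10 in RNF25 KO and -0.81 ± 0.12 in DKO. PIGG, an enzyme of GPI anchor synthesis, was at -0.85 ± 0.20 and -0.87 ± 0.25, and WFS1, an ER membrane protein, at -0.54 ± 0.27 and -0.53 ± 0.33. ACOX3, a peroxisomal oxidase of branched fatty acids, had the smallest difference of all in RNF25 KO (-0.16 ± 0.28) and one of the largest in DKO (-1.52 ± 0.39), at 4.41, 4.97 and 6.48 CPM (lowest, median and highest) in RNF25 KO, 0.703, 1.997 and 6.35 CPM in DKO, and 3.17, 5.82 and 8.19 CPM in AAVS1.

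The 4 cytoskeletal genes had medians of -0.88 in RNF25 KO and -0.86 in DKO. ADD1, a subunit of the membrane-skeleton protein adducin, stood at 58.8, 50.4 and 66.1 CPM in untreated RNF25 KO, 79.2, 61.6 and 77.5 CPM in untreated DKO, and 108, 97.8 and 157 CPM in untreated AAVS1. WDR1, which promotes actin disassembly, stood at 76.5, 63.4 and 78.5 CPM in untreated RNF25 KO, 102, 74.4 and 80.0 CPM in untreated DKO, and 134, 122 and 158 CPM in untreated AAVS1. Neither overlapped with AAVS1 when untreated. WDR1, the last gene of the stretch, differed by -0.76 ± 0.11 in RNF25 KO and -0.87 ± 0.14 in DKO, and ADD1 by -1.07 ± 0.11 and -0.85 ± 0.13. CRMP1, a cytosolic phosphoprotein of neurite outgrowth, was at -0.99 ± 0.13 and -1.07 ± 0.16, and AFAP1, an actin-filament-binding protein, at -0.41 ± 0.26 and -0.84 ± 0.33.

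Of the signalling genes 5 were measured, with medians of -0.81 in RNF25 KO and -0.75 in DKO. FGFRL1, a receptor of the FGF family without a kinase domain, was at -0.88 ± 0.24 in RNF25 KO but at -0.13 ± 0.28 in DKO, the smallest difference there. Only the RNF25 KO average includes HF. The HF response of FGFRL1 in RNF25 KO minus AAVS1 was -0.58 ± 0.59 (log2), not past the threshold (edgeR unadjusted p = 0.335). FGFR3, a receptor tyrosine kinase, was at -0.41 ± 0.31 and -0.75 ± 0.41, and its libraries overlapped AAVS1 in both lines. TNIP2, an inhibitor of NF-kappaB signalling, was at -0.89 ± 0.18 and -1.23 ± 0.22. DGKQ, a diacylglycerol kinase, was at -0.81 ± 0.30 and -1.13 ± 0.38, and RGS12, a regulator of G protein signalling, at -0.67 ± 0.28 and -0.54 ± 0.33.

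NOP14, a factor of small ribosomal subunit assembly, stood at 77.3, 114 and 88.5 CPM in untreated RNF25 KO, 97.7, 90.0 and 81.3 CPM in untreated DKO, and 212, 206 and 202 CPM in untreated AAVS1. Its difference, -1.08 ± 0.09 in RNF25 KO and -1.06 ± 0.11 in DKO, had one of the smallest SE, although 17.1% of its exon length lies opposite another gene and the strand setting of the counting is not given in the sources used here. The same limit holds for TBC1D14 (41.1%), CTBP1 (13.3%), AFAP1 (7.9%), PCGF3 (7.5%) and STX18 (5.2%). HTT, the gene of the large scaffold protein huntingtin, stood at 8.86, 11.8 and 11.2 CPM in untreated RNF25 KO, 13.7, 16.1 and 13.3 CPM in untreated DKO, and 28.4, 34.4 and 38.5 CPM in untreated AAVS1. With azaC it was at 10.4, 34.5 and 12.7 CPM in RNF25 KO, 16.3, 19.0 and 14.7 CPM in DKO, and 33.4, 39.8 and 29.3 CPM in AAVS1. The 34.5 CPM belongs to RNF25 KO azaC replicate 2, the library of the highest GC slope. HTT differed by -1.16 ± 0.18 in RNF25 KO, or -1.43 without that library, and by -1.13 ± 0.22 in DKO. KIAA0232 and FAM193A, for which no role is given here, were at -1.22 ± 0.19 and -0.95 ± 0.13 in RNF25 KO and at -1.01 ± 0.23 and -0.87 ± 0.16 in DKO. The genes not named above, ZNF721 (a zinc-finger gene with 25.8% of its exon length shared on the same strand), TADA2B (a SAGA adaptor), ZBTB49 (a zinc-finger transcription factor) and MFSD10 (a transporter), were at -1.10 to -0.74 in RNF25 KO and -0.99 to -0.66 in DKO. MFSD10 was at -1.22 in RNF25 KO without RNF25 KO azaC replicate 2, against -0.96 ± 0.18 with it.

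**Figure D2:**
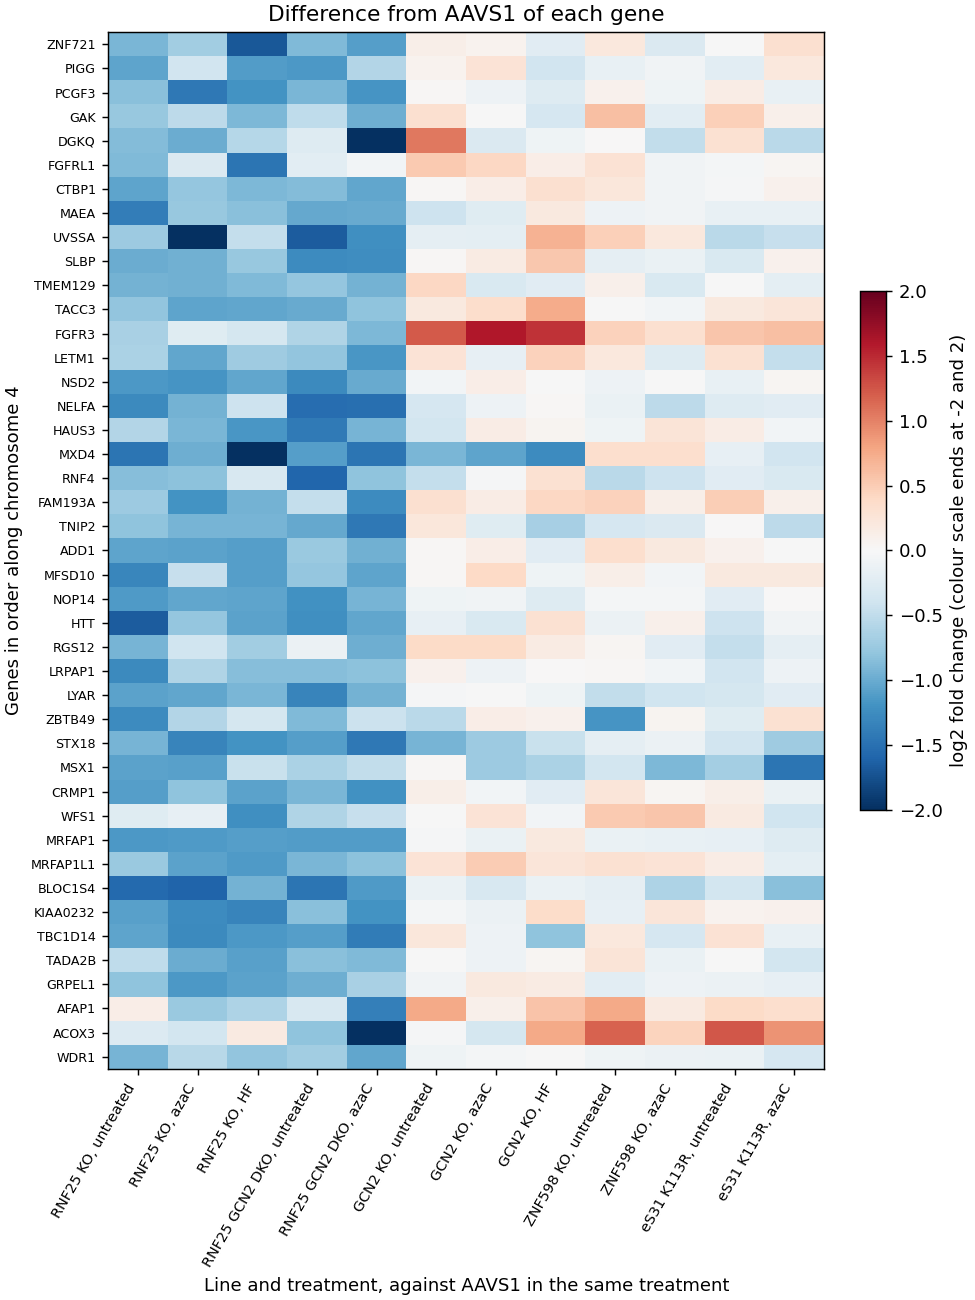
Log2 fold change against AAVS1 of the same treatment (colour, ending at -2 and 2) for each of the 43 genes in their order along the chromosome (rows) in each line and treatment (columns, n = 3 libraries a side). The 5 columns of RNF25 KO and DKO are blue in nearly every row, with medians of -0.91 to -1.03, while the 7 columns of the other lines are near 0 apart from single genes such as FGFR3 in GCN2 KO.

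**Figure D3:**
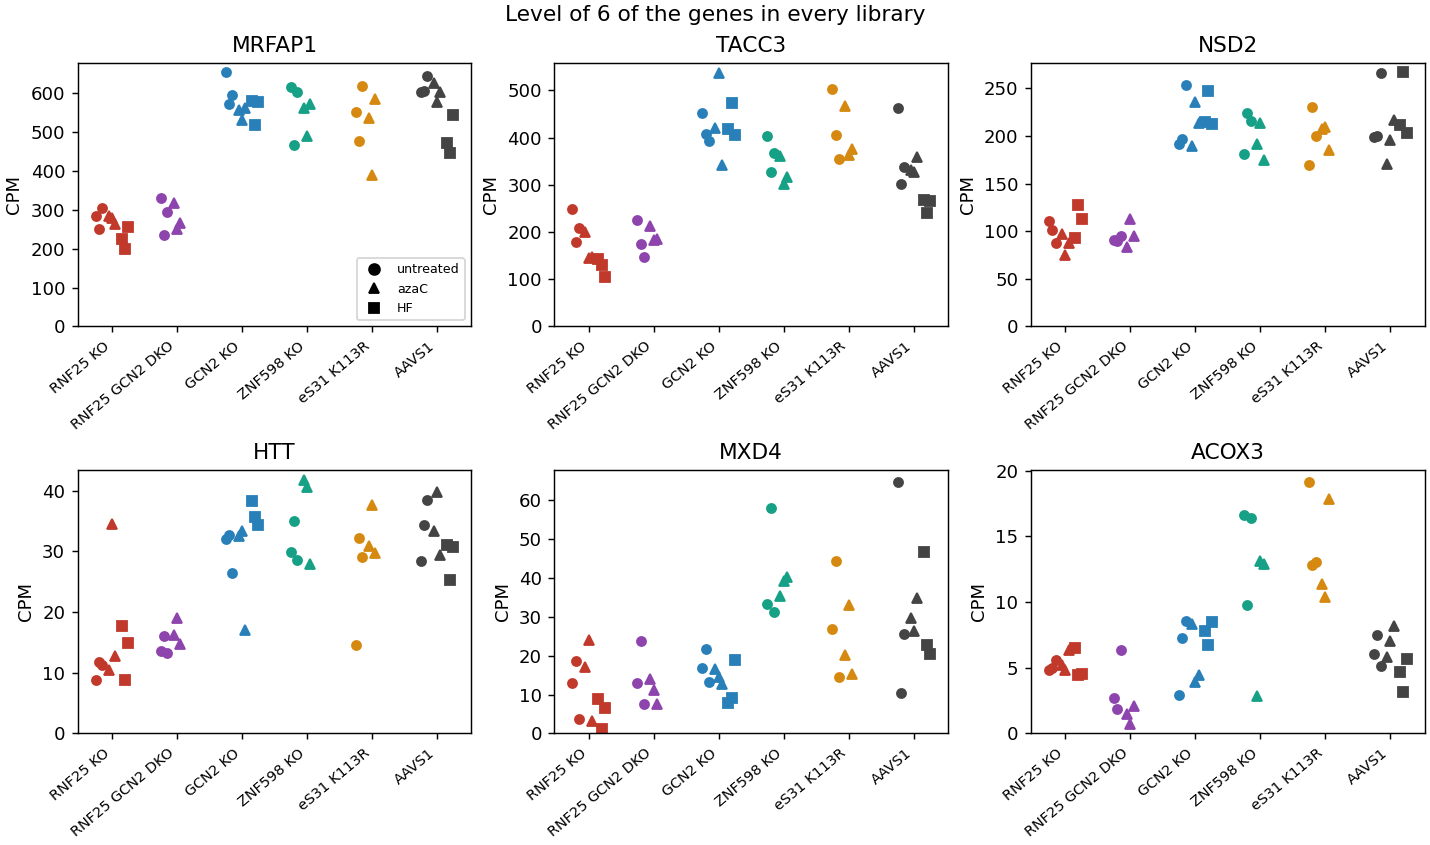
Level in CPM (vertical axes, from 0) of MRFAP1, TACC3, NSD2, HTT, MXD4 and ACOX3 in each of the 45 libraries by line, with the symbol showing the treatment. MRFAP1 and NSD2 separate RNF25 KO and DKO from all other lines, HTT overlaps through 1 RNF25 KO library at 34.5 CPM and low single libraries of GCN2 KO and eS31 K113R, and MXD4 and ACOX3 overlap between lines.

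Listed genes under the count limit were not all lower. HMX1, a homeobox gene of eye and ear development, had counts in 9 of 9 RNF25 KO libraries (1.61 to 14.4 CPM) and 6 of 6 DKO libraries (2.22 to 8.39 CPM), against 1 count in all 9 AAVS1 libraries together. It averaged 7.54 CPM in RNF25 KO, 4.75 CPM in DKO, 3.22 CPM in ZNF598 KO, 1.67 CPM in eS31 K113R, 0.755 CPM in GCN2 KO and 0.0554 CPM in AAVS1, so counts of HMX1 were seen in each edited line. The NSG1 entry, a gene of endosomal trafficking in neurons, averaged 32.8 CPM in RNF25 KO, 42.7 CPM in DKO, 20.2 CPM in GCN2 KO, 26.7 CPM in ZNF598 KO, 93.9 CPM in eS31 K113R and 54.4 CPM in AAVS1. Its level thus differed between lines in both directions. TMEM175, a lysosomal ion channel, averaged 3.18 CPM in RNF25 KO, 2.75 CPM in DKO and 6.62 CPM in AAVS1.

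Along the chromosome, the lower levels were not limited to the listed names. The 14 tested genes under 10 Mb that are not on the list had a median of -0.96 in RNF25 KO, with 12 below 0, and -0.94 in DKO, with 13 below 0. ATP5I, a subunit of ATP synthase, was at -1.01 in RNF25 KO and -1.13 in DKO. Of the 5 nearest tested genes beyond 10 Mb, RAB28 was at -1.16 in RNF25 KO and -0.64 in DKO, NKX3-2 at -1.31 and -1.32, BOD1L1 at -1.17 and -0.93, and HSP90AB2P at 0.17 and 0.28. ZNF518B was at -2.02 and -0.86 but was also lower in GCN2 KO (-1.47), ZNF598 KO (-1.81) and eS31 K113R (-0.97). NKX3-2 was also lower in eS31 K113R (-0.83), and stood at 0.17 in GCN2 KO and 0.60 in ZNF598 KO.

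Further along, the sign turned. The 56 tested genes that start between 15 and 45 Mb had a median of 0.64 in RNF25 KO, with 52 above 0, and 0.75 in DKO, with 50 above 0. Their medians were 0.04 in GCN2 KO, -0.02 in ZNF598 KO and 0.21 in eS31 K113R. The 12 genes from 45 to 50 Mb had medians of 0.06 in RNF25 KO and -0.14 in DKO, and the 23 genes from 50 to 60 Mb had medians of -0.14 and -0.05. These limits were set after the values were seen and carry no test. With limits of 10 and 50 Mb, the 73 genes between had medians of 0.53 in RNF25 KO and 0.63 in DKO. Medians of the 22 other chromosomes ran from -0.07 (chromosome 13) to 0.12 (chromosome 19) in RNF25 KO and from -0.01 to 0.06 in DKO. Shifts of other chromosomes were seen in the other lines. There the medians ran from -0.33 (chromosome X) to 0.07 in GCN2 KO, from -0.12 (chromosome 16) to 0.08 in ZNF598 KO and from -0.88 (chromosome X) to 0.09 in eS31 K113R.

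**Figure D4:**
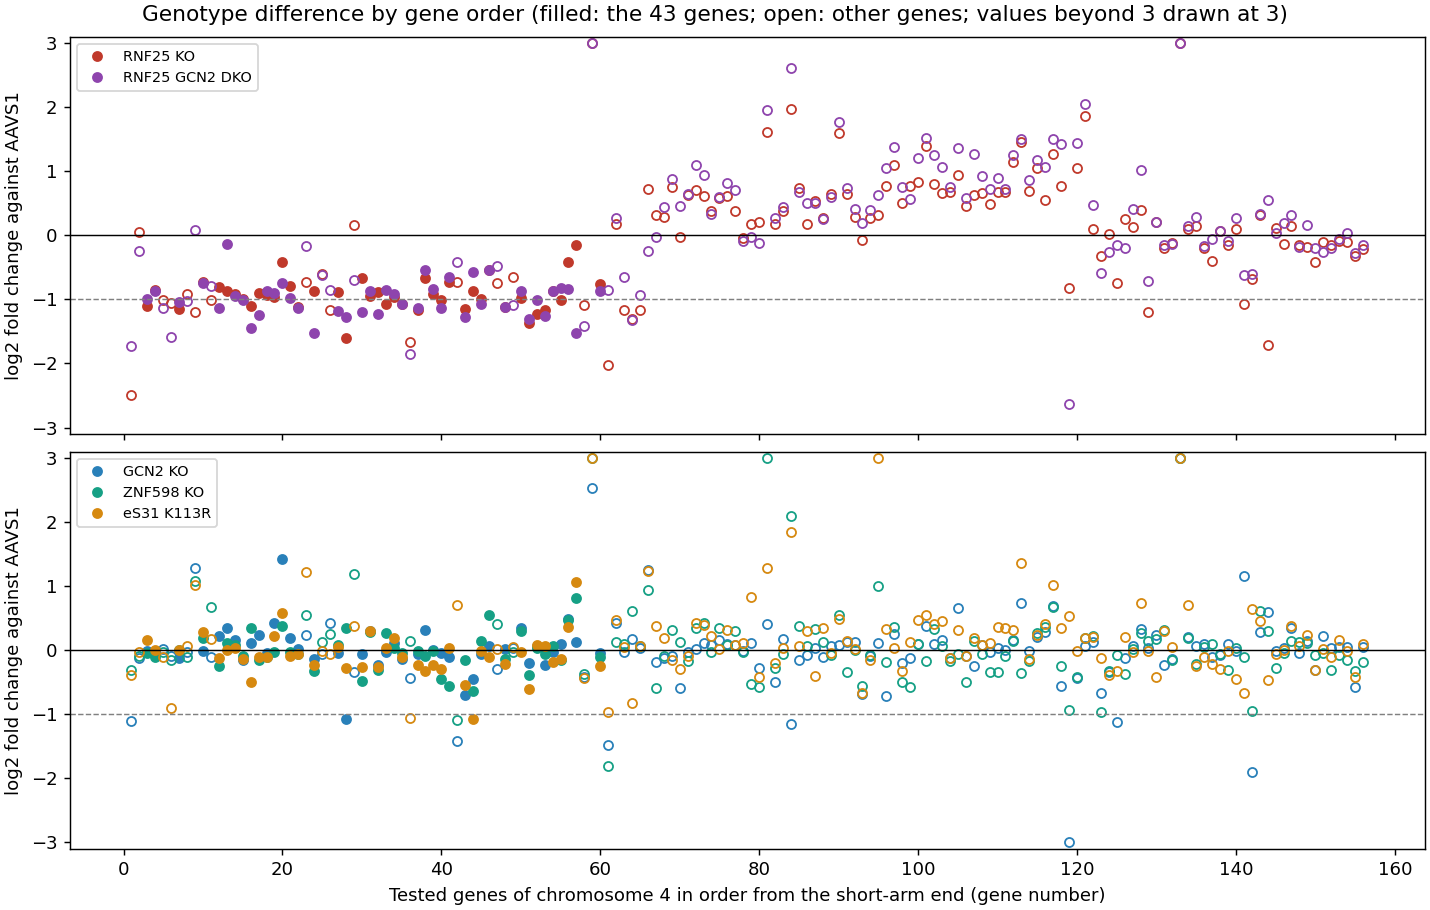
Log2 fold change against AAVS1 averaged over treatments (vertical axis, values beyond 3 drawn at 3) for tested genes at the start of chromosome 4 by their order from the end of the short arm (horizontal axis). Upper panel RNF25 KO and DKO, lower panel GCN2 KO, ZNF598 KO and eS31 K113R, with the 43 genes filled and other genes open. In the upper panel the filled points lie around the dashed line at -1 and are followed by points above 0, with medians of 0.64 in RNF25 KO and 0.75 in DKO between 15 and 45 Mb.

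The 3 lines that the choice of genes did not use were tested against AAVS1, and in none of them did the 43 genes lie near the levels seen in RNF25 KO and DKO. The summed level was 3672 ± 79.3 CPM in untreated GCN2 KO, 3593 ± 134 CPM in ZNF598 KO and 3489 ± 62.0 CPM in eS31 K113R, against 3577 ± 255 CPM in untreated AAVS1 (SD, n = 3 each). The ratios to AAVS1 were 1.03 ± 0.0442 in GCN2 KO, 1.00 ± 0.0467 in ZNF598 KO and 0.975 ± 0.0414 in eS31 K113R (SE). With azaC the ratios were 1.04 ± 0.0228 in GCN2 KO, 0.950 ± 0.0169 in ZNF598 KO and 0.937 ± 0.0289 in eS31 K113R, and with HF the ratio was 1.10 ± 0.0259 in GCN2 KO. The summed levels did not overlap AAVS1 in GCN2 KO with HF (higher) and in ZNF598 KO and eS31 K113R with azaC (lower), and they overlapped in the other 4 comparisons. Averaged over treatments, a value of 0 lay within 2 SE for 36 of the 43 genes in GCN2 KO, 38 in ZNF598 KO and 38 in eS31 K113R, and a value of -1 for 2, 2 and 4 of them. In edgeR 7, 5 and 5 of the 43 were at an unadjusted p under 0.05, against 2119, 1260 and 1979 of all 11078 genes. Most genes of the genome thus lay near 0 as well, and the counts near 0 are not particular to the 43. No gene of the 43 had all libraries of GCN2 KO, ZNF598 KO or eS31 K113R below all AAVS1 libraries, where 0.469%, 0.821% and 2.18% of all genes did.

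In GCN2 KO, edgeR called 0 of the 43 genes lower untreated (0.343% of all genes tested) and 0 with azaC (0.506%). So did limma-voom and DESeq2. In edgeR 3 and 2 of the 43 were at an unadjusted p under 0.05, against 1061 and 989 of all 11078 genes. With HF 1 gene was called lower (1.84%), and averaged over treatments 1 was (3.4%). In ZNF598 KO edgeR called 0 lower untreated (0.361%) and 0 with azaC (0.235%), again as limma-voom and DESeq2, and 1 averaged (1.06%). Untreated and with azaC, 4 and 2 of the 43 were at an unadjusted p under 0.05, against 988 and 793 of all genes. In eS31 K113R edgeR called 0 lower untreated (1.69%) and 0 with azaC (1.88%). Of the 43, 3 and 4 were at an unadjusted p under 0.05 there, against 1306 and 1438 of all genes. There limma-voom called 0 in both, and DESeq2 0 untreated and 1 with azaC. Averaged over treatments 1 gene was called lower in eS31 K113R (3.69%). These shares are near the background. That background is uneven over the genome. Of the genes called lower on average, 120 of 377 in GCN2 KO and 235 of 409 in eS31 K113R were on chromosome X.

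On the higher side, 2 of the 43 genes were called in GCN2 KO averaged, where 454 of all 11078 genes were. With HF in GCN2 KO 1 was called higher (211 of 11078), and in eS31 K113R averaged 1 was (359 of 11078). These shares too are near the background, so the genes given next are not read as a result about the 43. FGFR3 was higher in GCN2 KO, at 17.4, 13.6 and 17.1 CPM untreated, 22.2, 30.6 and 24.7 CPM with azaC and 27.6, 27.6 and 25.9 CPM with HF, against 12.1, 0.998 and 8.99 CPM, 7.996, 11.6 and 5.46 CPM, and 18.6, 7.61 and 4.62 CPM in AAVS1. All 9 GCN2 KO libraries lay above the 3 AAVS1 libraries of the same treatment. The averaged log2 fold change was 1.42 ± 0.28 (edgeR adjusted p = 0.000423), and adjusted p ranged from 8.32e-06 to 0.0109 over 27 alternatives.

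TACC3, its neighbour, was higher in GCN2 KO by 0.43 ± 0.10 on average (edgeR adjusted p = 0.00369), with 5 of 9 libraries above all AAVS1 libraries of the same treatment. Over 27 alternatives the adjusted p ranged from 9.75e-05 to 0.299, and the call ended only when HF was left out (0.27, edgeR adjusted p = 0.299). With HF alone TACC3 stood at 418, 473 and 405 CPM in GCN2 KO, against 268, 239.6 and 266 CPM in AAVS1, a difference of 0.74 ± 0.18 (edgeR adjusted p = 0.00735). Over 14 alternatives the adjusted p ranged from 0.000222 to 0.0557, and the call ended without AAVS1 HF replicate 2 (adjusted p = 0.0535) or GCN2 KO HF replicate 2 (adjusted p = 0.0557). TBC1D14 with HF stood at 29.8, 30.7 and 38.3 CPM in GCN2 KO, against 59.0, 51.3 and 63.2 CPM in AAVS1, a difference of -0.81 ± 0.23 (edgeR adjusted p = 0.0294) in 3 of 3 libraries. It was lost without AAVS1 HF replicate 1 (adjusted p = 0.0815) or 3 (0.135), without GCN2 KO HF replicate 1 (0.135) or 2 (0.121), and with no filter on low counts (0.155), within a range of 0.0156 to 0.155 over 14 alternatives.

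MXD4 was lower in GCN2 KO by -1.07 ± 0.31 on average (edgeR adjusted p = 0.0198). It stood at 16.7, 21.8 and 13.2 CPM untreated, 16.6, 14.5 and 12.7 CPM with azaC and 7.80, 9.21 and 18.9 CPM with HF in GCN2 KO, against 64.6, 10.5 and 25.7 CPM, 29.8, 26.2 and 34.8 CPM, and 46.6, 22.8 and 20.5 CPM in AAVS1. The lines overlapped untreated, and 6 of 9 GCN2 KO libraries lay below all AAVS1 libraries of their treatment. The call ended without AAVS1 untreated replicate 1 (-0.79, adjusted p = 0.11), without AAVS1 HF replicate 1 (-0.93, adjusted p = 0.0662), in limma-voom (-0.88, adjusted p = 0.0814) and without HF (-0.98, adjusted p = 0.163), within a range of 1.82e-05 to 0.163 over 27 alternatives.

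LYAR was lower in ZNF598 KO, at 156, 144 and 123 CPM untreated and 124, 136 and 149 CPM with azaC, against 208, 193 and 195 CPM and 146, 209 and 185 CPM in AAVS1. The averaged difference was -0.45 ± 0.11 (edgeR adjusted p = 0.00951), with 5 of 6 libraries below all AAVS1 libraries of their treatment. The call ended without AAVS1 azaC replicate 2 (-0.39, adjusted p = 0.0542), with no filter (adjusted p = 0.137) and with only the groups compared in the fit (adjusted p = 0.098), within a range of 0.0021 to 0.137 over 20 alternatives. LYAR in RNF25 KO stood at -1.01 ± 0.09 against the same AAVS1 libraries, and ZNF598 KO was not tested against RNF25 KO.

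In eS31 K113R, MSX1 was lower and ACOX3 higher on average. MSX1 stood at 13.8, 9.14 and 6.14 CPM untreated and 6.496, 5.78 and 5.95 CPM with azaC in eS31 K113R, against 22.4, 19.5 and 5.14 CPM and 16.7, 20.7 and 13.0 CPM in AAVS1, a difference of -1.07 ± 0.31 (edgeR adjusted p = 0.0207). Only 3 of 6 libraries lay below all AAVS1 libraries of their treatment. The call was lost in 8 of 21 alternatives: without AAVS1 untreated replicate 1 (adjusted p = 0.0784) or 2 (0.0696), without AAVS1 azaC replicate 2 (0.0657), without eS31 K113R untreated replicate 3 (0.0672) or azaC replicate 2 (0.0526), in limma-voom (0.0534), with only the groups compared (0.0877), and with replicate 1 as the only untreated eS31 K113R library (-0.82, adjusted p = 0.295, with 0.00232 as the lowest). ACOX3 stood at 19.1, 12.8 and 13.0 CPM untreated and 11.4, 10.4 and 17.8 CPM with azaC in eS31 K113R, against 6.02, 7.48 and 5.14 CPM and 5.82, 7.06 and 8.19 CPM in AAVS1, a difference of 1.07 ± 0.31 (edgeR adjusted p = 0.0235) with 6 of 6 libraries above all AAVS1 libraries. It was lost with no filter (adjusted p = 0.125) and without AAVS1 untreated replicate 3 (0.0631), AAVS1 azaC replicate 1 (0.0659) or 2 (0.0522), or eS31 K113R untreated replicate 1 (0.0803) or azaC replicate 3 (0.0969), within a range of 0.0162 to 0.125 over 21 alternatives.

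Whether the 2 lines with the low levels differed from each other is a contrast the choice of genes did not use. edgeR called 0 of the 43 genes between DKO and RNF25 KO in either direction untreated (0% of all genes), with azaC (0.713%) and averaged (0.442%). At an unadjusted p under 0.05 were 1, 3 and 1 of the 43, against 325, 1364 and 954 of all 11078 genes. limma-voom and DESeq2 called 0 as well. The median difference was 0.03 untreated, -0.12 with azaC and -0.04 averaged. The lowest average was that of ACOX3, which stood at 2.54 CPM in DKO and 5.30 CPM in RNF25 KO, a difference of -1.19 ± 0.40 (edgeR adjusted p = 0.273). The highest was that of MSX1, at 11.05 CPM in DKO and 7.64 CPM in RNF25 KO, a difference of 0.51 ± 0.31 (edgeR adjusted p = 0.660). Neither passed the threshold, which does not show that the lines are alike.

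AzaC moved no gene of the 43 past the threshold in edgeR with all libraries. Against untreated cells of the same line, edgeR called 0 of them in either direction in RNF25 KO (0.469% of all genes), DKO (0%), GCN2 KO (0%), ZNF598 KO (0.117%), eS31 K113R (0.515%) and AAVS1 (0.117%), and so did limma-voom and DESeq2. At an unadjusted p under 0.05 the counts were 6 in RNF25 KO, 1 in DKO, 0 in GCN2 KO, 1 in ZNF598 KO, 0 in eS31 K113R and 2 in AAVS1. Over all 11078 genes, in the same order of lines, they were 1031, 291, 405, 331, 578 and 535. Median log2 fold changes were 0.09 in RNF25 KO, 0.01 in DKO, 0.02 in GCN2 KO, -0.09 in ZNF598 KO, -0.01 in eS31 K113R and 0.06 in AAVS1. Leaving out RNF25 KO azaC replicate 3 gave 1 call in RNF25 KO.

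HF called 2 of the 43 in RNF25 KO (1.73% of all genes), 1 in GCN2 KO (1.24%) and 1 in AAVS1 (1.54%), all lower. In RNF25 KO, TACC3 fell to 144, 129.9 and 105 CPM with HF, against 248.8, 178 and 209 CPM untreated, a change of -0.74 ± 0.18 (edgeR adjusted p = 0.0167) in 3 of 3 libraries. That call ended without untreated replicate 1 (adjusted p = 0.169), HF replicate 2 (0.0654) or HF replicate 3 (0.116), and with only the groups compared (0.0661), within a range of 0.000745 to 0.169 over 14 alternatives. TACC3 with HF changed by 0.05 in GCN2 KO (edgeR adjusted p = 0.972) and by -0.50 in AAVS1 (edgeR adjusted p = 0.175), neither past the threshold.

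GRPEL1 in RNF25 KO fell to 50.1, 44.8 and 50.05 CPM with HF, against 75.7, 90.8 and 70.4 CPM untreated, a change of -0.71 ± 0.17 (edgeR adjusted p = 0.0148) in 3 of 3 libraries. It was lost without untreated replicate 2 (adjusted p = 0.119), HF replicate 1 (0.0552) or HF replicate 2 (0.106), with no filter (0.187) and with only the groups compared (0.131), within a range of 0.00391 to 0.187. TNIP2 in GCN2 KO fell to 18.4, 17.8 and 17.4 CPM with HF, against 38.5, 43.7 and 36.6 CPM untreated, a change of -1.14 ± 0.31 (edgeR adjusted p = 0.0494) in 3 of 3 libraries. Leaving out any 1 of its 6 libraries ended the call (adjusted p = 0.11 to 0.176), as did no filter (0.0981), GC-corrected offsets (0.0656) and limma-voom (0.0638), and the range over 14 alternatives was 0.0236 to 0.176. RNF4 in AAVS1 fell to 10.9, 17.1 and 15.4 CPM with HF, against 24.1, 45.4 and 30.2 CPM untreated, a change of -1.20 ± 0.32 (edgeR adjusted p = 0.0345) in 3 of 3 libraries. It was lost without AAVS1 untreated replicate 2 (adjusted p = 0.289), without HF replicate 1 (0.232), 2 (0.0695) or 3 (0.0824), with no filter (0.0856) and with only the groups compared (0.302), within a range of 0.0174 to 0.302.

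The difference between lines did not move detectably with either drug. Interaction tests in edgeR called 0 of the 43 genes for the azaC response in RNF25 KO minus AAVS1 (0% of all genes), the HF response in RNF25 KO minus AAVS1 (0%) and the azaC response in DKO minus AAVS1 (0.0451%). At an unadjusted p under 0.05 were 0, 1 and 2 of the 43, against 305, 291 and 369 of all 11078 genes. limma-voom and DESeq2 called 0 in each. The median interactions were 0.02, 0.04 and -0.06 on the log2 scale.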

How the data were processed

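Per the labels' protocols, RNA of the 45 HAP1 samples (15 groups of 3) came from a Maxwell RSC kit, and CORALL mRNA-Seq V2 was used to make polyA libraries. The deposited values are raw counts per gene, and STAR 2.7.10b, HTSeq 0.9.1 and GRCh38 are named in the submitters' processing notes. Strand setting, annotation release and any use of molecular identifiers were not given in the sources used here. All sample columns were used (0 left out). Entries without a symbol (2862, with 0.0286% of the counts) stayed in the fit but were never named. Untreated eS31 K113R replicates 2 and 3 have eS32_K223R in their title and genotype label; they were placed by the described column name, and 1 alternative left both out.

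The counts went into edgeR 4.0.16 in R 4.3.3. There filterByExpr (minimum count 10) left 11078 genes, libraries were TMM scaled, and glmQLFit used 15 group means with 30 residual degrees of freedom (common coefficient of variation 22.1%). Differences averaged over treatments use those that both lines have. Tests were two-sided quasi-likelihood F tests with Benjamini-Hochberg adjustment over all genes tested, and a gene was called at an adjusted p under 0.05. Log2 CPM used a prior count of 2. Alternatives were limma-voom (limma 3.58.1), DESeq2 1.42.0, no filter, a replicate block, GC-corrected offsets, only the groups compared, and each library left out in turn. The edgeR fit was also run with DESeq2 size factors and with TMM factors from genes not on chromosome 4. Some comparisons also had GCN2 KO, ZNF598 KO and eS31 K113R in place of AAVS1, replicate 1 as the only untreated eS31 K113R library, or HF left out. The fit was tested on simulated data.

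The genes and role lists were chosen with earlier results of these data known. The 8 genes of highest mean CPM and HTT, NSD2, SLBP and LETM1 were given with values in each untreated library of RNF25 KO, DKO and AAVS1. Most of their values with azaC and HF are not printed. Given with tests was every gene called in a comparison that the choice did not use. Depth was 1135498 to 2478875 counts per library.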

Additional observations from a re-analysis of the deposited data

Results flagged for a closer look

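GRPEL1, the mitochondrial import co-chaperone, moved in opposite directions with azaC in DKO and RNF25 KO. It stood at 79.8, 82.3 and 80.5 CPM with azaC against 64.9, 67.7 and 78.1 CPM untreated in DKO, a log2 change of 0.203. In RNF25 KO it stood at 68.2, 51.4 and 53.4 CPM with azaC against 75.7, 90.8 and 70.4 CPM untreated, a change of -0.463. Every library with azaC lay on one side of the untreated libraries in DKO and on the other side in RNF25 KO, and the responses differed by 0.666 (DKO minus RNF25 KO). That non-overlap was the rule by which GRPEL1 was picked from the named and called genes, over pairs of lines and both drugs. The share of all genes that meet the rule was not counted, so the non-overlap is no support for a difference in response. The difference was not tested, and azaC did not bring GRPEL1 past the threshold in either line.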

How the results depend on the processing

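No called gene reversed its direction. Counts against AAVS1 below are of genes called lower, and counts of drug responses are of either direction. The median log2 fold change of the 43 genes against AAVS1 stayed between -1.125 and -0.758 in every RNF25 KO and DKO comparison, under all alternatives run. With the GCN2 KO, ZNF598 KO and eS31 K113R libraries in place of AAVS1 the averaged medians were -0.90 in RNF25 KO and -0.98 in DKO. With offsets corrected for GC content the untreated DKO median was -1.041 and the untreated eS31 K113R median -0.152, and calls were 2 lower in GCN2 KO averaged and 0 with HF in GCN2 KO. With only the groups compared, counts lower were 4 (untreated) and 12 (azaC) in RNF25 KO, 5 in untreated DKO, 0 in ZNF598 KO averaged, and 1 (azaC) and 0 (averaged) in eS31 K113R, calls with HF were 0 in AAVS1 and 0 in RNF25 KO, and the RNF25 KO median with HF was -1.024. These fits have fewer libraries to estimate spread from. With no filter, calls were 2 in GCN2 KO averaged, 0 in ZNF598 KO averaged, and with HF 1 in RNF25 KO, 0 in GCN2 KO and 0 in AAVS1. limma-voom gave 0 in eS31 K113R averaged, 0 with HF in GCN2 KO, and a median azaC interaction of -0.182 in DKO. DESeq2 gave 2 in GCN2 KO averaged, 1 in eS31 K113R with azaC and 3 with HF in GCN2 KO. With replicate 1 as the only untreated eS31 K113R library, its untreated median was -0.155 and its averaged count 0. With untreated and azaC libraries only, an alternative chosen after seeing the data, the averaged GCN2 KO count was 0. The cause of these shifts was not tested.

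The replicate block gave 2 in GCN2 KO averaged, 1 in eS31 K113R with azaC, 3 with HF in AAVS1 (RNF4, TACC3 and LYAR) and 3 with HF in GCN2 KO (TNIP2, TBC1D14 and LYAR), the added ones named after their values were seen. The labels do not say what a shared number means: deviations of same-numbered libraries had a median correlation of 0.149 (-0.247 to 0.463), 229 of 315 pairs were over 0.1, and 42 of 45 libraries correlated best with their own number, a hint from the data and not from the design.

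Leaving out 1 library at a time gave medians against AAVS1 of -1.095 to -0.902 in untreated RNF25 KO, -1.017 to -0.859 with HF in RNF25 KO, -1.01 to -0.836 in untreated DKO, -1.125 to -0.966 with azaC in DKO, -0.042 to 0.15 with HF in GCN2 KO and -0.11 to 0.135 in untreated ZNF598 KO. The untreated DKO minus RNF25 KO median ran from -0.049 to 0.067, the azaC median in GCN2 KO from -0.044 to 0.063, the HF medians from -0.229 to 0.063 in RNF25 KO and -0.135 to -0.054 in GCN2 KO, and the azaC interaction of DKO from -0.163 to 0.036. Counts ran from 11 to 16 lower in untreated DKO, 0 to 1 with HF and 0 to 2 averaged in GCN2 KO, 0 to 1 averaged in ZNF598 KO, 0 to 2 averaged in eS31 K113R, 0 to 1 with azaC in RNF25 KO, and with HF 0 to 2 in RNF25 KO, 0 to 0 in GCN2 KO and 0 to 1 in AAVS1. Genes of 10 to 30 mean counts had SE up to 0.50 in the averaged comparisons of RNF25 KO and DKO with AAVS1, which limits their precision.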
